A study of Arabidopsis thaliana with 12 samples.

Results

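In roots of a parental Arabidopsis line, 66 of 22746 Affymetrix probe sets had a higher signal on low sulfate than on sufficient sulfate and showed little of that difference in either of 2 slim1 mutants. These 66 probe sets are the SLIM1-dependent low-sulfate inductions described here. They were chosen from the arrays themselves. Each array was scaled to a median of 100, signals under 32 were raised to 32, and the log2 signals were averaged per group. The response R is the group mean on low sulfate minus the group mean on sufficient sulfate, so an R of 1 is a doubling. A member had an R of at least 0.8 in the parent, with both low-sulfate arrays above both sufficient-sulfate arrays. In addition, R had to lie under 0.4, and under 0.5 times the parental R, in slim1-1 and in slim1-2. Thresholds were met by 72 probe sets, and 6 of 8 genes that the rule names as left out were among them. These 6 were MGL, AT1G75280, AT3G49960, AT1G66760, GSTU27 and BGLU15; the expansin genes EXPA7 and EXPA18, with R of 0.76 and 0.79 in the parent, lay just under the threshold. In all, 123 probe sets met the parental part of the rule.

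The parent, P, is Columbia transformed with a construct in which the SULTR1;2 promoter, of a root sulfate transporter, drives the green fluorescent protein GFP (PSULTR1;2-GFP). The mutants slim1-1 and slim1-2 were isolated from this reporter line because their GFP did not respond to sulfur limitation, so all 3 lines carry the reporter and each mutant is 1 isolate. Plants were 10 days old and grew vertically on agar with 1500 µM of added MgSO4 (S1500, sufficient) or with 15 µM (S15, low), on top of about 10 µM of residual sulfate. Each of the 6 groups, P-S1500, P-S15, slim1-1-S1500, slim1-1-S15, slim1-2-S1500 and slim1-2-S15, had 2 arrays of root RNA that the labels call biological replicates. Nothing says that they came from separate cultures, so the p-values below measure the spread between these arrays.

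SLIM1, also called EIL3, belongs to the EIN3-like transcription factors, whose best known members act in ethylene signalling. It is known as a central regulator of sulfur limitation in roots, where it promotes sulfate uptake and represses the synthesis of glucosinolates, which are sulfur-rich defence compounds. Plants short of sulfate also break down glucosinolates, which returns sulfur to primary metabolism.

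Deposited array medians ran from 65.7 to 175.2 before scaling, and 28.3% to 30.8% of probe sets per array lay under the floor of 32. Of 27 control probe sets for Bacillus subtilis, the highest lay between 10.5 and 29.1 on the scaled axis, below the floor. Replicate arrays correlated at 0.991 to 0.993 and arrays of different groups at 0.983 to 0.993 across probe sets, which are not independent replicates. The root markers PYK10, a root beta-glucosidase, and PER57, a peroxidase, were bright on every array, with lowest scaled signals of 5104 and 2080. SLIM1 and the sulfate transporters were not analysed here.

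Of the 66 members, 32 are named by 1 gene in the probe annotation, 1 by several genes, and 33 are not listed there. The 34 members without a single gene are given by counts and ranges. Across all members, R in P ran from 0.82 to 5.33 with a median of 1.05, in slim1-1 from -0.68 to 0.40 with a median of 0.00, and in slim1-2 from -1.33 to 0.37 with a median of -0.04. Over all 22746 probe sets, the median was 0.00 in each line. The signal was at least 2-fold higher on S15 in P for 37 members and at least 4-fold higher for 9. These values chose the members and are a description. Leaving out an array of P enlarged the list, to 120 probe sets without P-S15 replicate 1 and to 100 without P-S1500 replicate 2. Of the 66 members, 5 and 4 were then lost. Without P-S15 replicate 2 the list held 81 and 14 members were lost, and without P-S1500 replicate 1 it held 83 and 13 were lost.

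**Figure D1:**
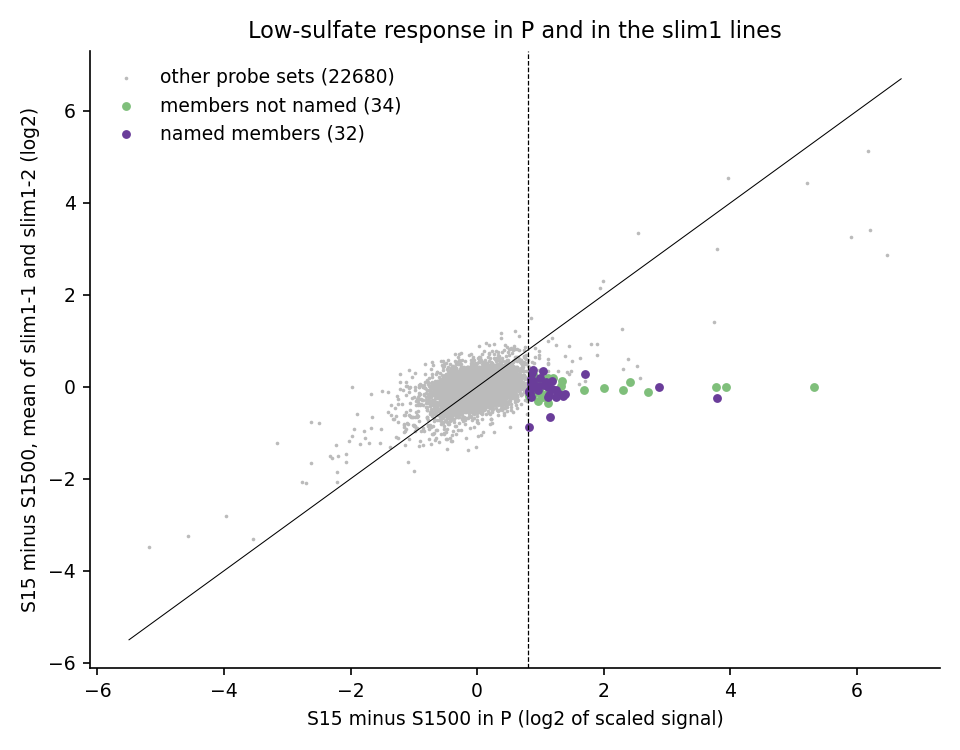
Each point is 1 probe set, with R in P on the horizontal axis and the mean R of slim1-1 and slim1-2 on the vertical axis, both on the log2 scale; the diagonal marks equal responses and the dashed line the parental threshold of 0.8. The 32 named and 34 unnamed members lie near 0 on the vertical axis, as the rule required, out to an R of 5.33 in P.

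The 6 named transport genes spanned the widest range, with R in P from 0.85 to 3.79. AT3G05400, a putative sugar transporter of the ERD6-like family, was at the floor of 32 on both P-S1500 arrays and at 440 and 445 on P-S15. It was at the floor on all 4 slim1-1 arrays and on both slim1-2-S15 arrays, with 58.0 and 33.6 on slim1-2-S1500. The S15 signal in P was thus at least 13.8-fold above S1500, and no mutant array came near it. A mutant response under the floor could not be seen, and AT3G05400 was not a member with a floor of 16 or after quantile normalization. SFP1, another ERD6-like sugar transporter, was bright in all groups, with 639 and 724 on P-S1500 against 1366 and 1445 on P-S15. Its mutant values, from 730 to 1138, lay between those of the parental groups and gave R of 0.40 in slim1-1 and 0.29 in slim1-2, the members' upper edge. Both S15 arrays of SFP1 lay above both S1500 arrays in slim1-1, at 1002 and 947 against 730 and 750. The same held in slim1-2, at 1037 and 1138 against 916 and 864.

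CHX16, a cation/H+ exchanger gene, gave 72.2 and 62.9 on P-S1500 and 212 and 230 on P-S15. In slim1-1 it gave 58.4 and 68.7 on S1500 and 86.1 and 71.6 on S15. In slim1-2 the S1500 arrays read 106 and 92.8 and the S15 arrays 101 and 135. The parental difference was 3.27-fold (R of 1.71 ± 0.185, SE of the fit), and the slim1-2 arrays lay above the slim1-1 arrays on both media. GTR1, a transporter that moves glucosinolates, read 230 and 221 on P-S1500 and 478 and 503 on P-S15. Its mutant arrays stayed at the parental S1500 level, with 209 and 233 on slim1-1-S1500, 204 and 206 on slim1-1-S15, 212 and 221 on slim1-2-S1500 and 254 and 216 on slim1-2-S15. R was 1.12 ± 0.115 (SE) in P, -0.11 in slim1-1 and 0.11 in slim1-2.

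AT5G40670, a homologue of cystinosin, the animal lysosomal cystine exporter, read 718 and 690 on P-S1500 and 1583 and 1630 on P-S15. The mutants were lower than the parent on both media, with 469 and 460 on slim1-1-S1500 and 535 and 484 on slim1-1-S15. For slim1-2 the signals were 414 and 454 on S1500 and 465 and 495 on S15. No mutant array reached the lowest P-S1500 array of this gene. AT1G48640, of the amino acid transporter family, had R of 0.85 in P, 0.32 in slim1-1 and 0.01 in slim1-2.

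Among the 4 redox genes, AT1G75290, of the isoflavone reductase-like family, was at the floor on both P-S1500 arrays and on all 8 mutant arrays. It read 243 and 226 on P-S15, at least 7.32-fold higher. Its adjacent paralogue AT1G75280, one of the genes left out by the rule, read 4882 and 4738 on P-S15 and 806 and 803 on P-S1500. On the mutant arrays AT1G75280 lay between 815 and 1068 while AT1G75290 stayed at the floor. MSRB5, a methionine sulfoxide reductase that repairs oxidised methionine, was the brightest named member, with 2212 and 2206 on P-S1500 and 3965 and 4203 on P-S15. Its mutant arrays lay between 1713 and 2669, and R was 0.89 in P, 0.09 in slim1-1 and 0.14 in slim1-2.

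AT5G36270, a dehydroascorbate reductase-like locus that RefSeq lists as a transcribed pseudogene, read 97.1 and 63.3 on P-S1500 and 175 and 166 on P-S15. The mutants ran from 76.3 to 97.9 in slim1-1, with 97.9 and 95.8 on S1500 and 82.8 and 76.3 on S15. In slim1-2 they were 122 and 125 on S1500 and 110 and 115 on S15, between the parental groups. AT1G34510, a class III peroxidase, was near the floor outside P-S15, where it read 78.8 and 98.3. Its P-S1500 arrays read 32 and 43.2, slim1-1-S1500 32.1 and 32, both slim1-1-S15 arrays 32, slim1-2-S1500 51.6 and 32, and slim1-2-S15 42.3 and 32. A signal of 32 is the floor, so its parental difference of 2.37-fold is measured against arrays that are partly at the floor.

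Of the named members, 7 encode secreted or cell wall proteins. Among them, 3 belong to the CAP family of secreted proteins related to PR-1. AT4G25790 read 176 and 174 on P-S1500 and 369 and 426 on P-S15. In slim1-1 it read 142 and 170 on S1500 and 149 and 144 on S15, and in slim1-2 it read 271 and 278 on S1500 and 293 and 249 on S15. R was -0.08 in slim1-1 and -0.02 in slim1-2, with slim1-2 between the parental groups and slim1-1 below them. AT4G33730 had R of 0.84, -0.29 and -0.15 in P, slim1-1 and slim1-2, and AT4G30320 had R of 0.85, 0.03 and 0.14.

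AT1G21480, of the exostosin family of putative glycosyltransferases, read 109 on both P-S1500 arrays and 303 and 270 on P-S15. Its mutant arrays were spread widely. They read 188 and 267 on slim1-1-S1500, 278 and 185 on slim1-1-S15, 166 and 186 on slim1-2-S1500, and 94.2 and 216 on slim1-2-S15. All 4 mutant S1500 arrays lay above P-S1500. AT2G28440, a proline-rich protein, was dim, with 39.0 and 32.7 on P-S1500 and 87.0 and 88.5 on P-S15. It read 32.8 and 60.6 on slim1-1-S1500, 60.9 and 49.0 on slim1-1-S15, 61.4 and 68.2 on slim1-2-S1500, and 57.3 and 32 on slim1-2-S15. Since 1 of its slim1-2-S15 arrays was at the floor, its R of -0.60 in slim1-2 has no exact size. AT5G19800, a hydroxyproline-rich glycoprotein, had R of 0.99, 0.23 and 0.16 in P, slim1-1 and slim1-2, and AT1G23200, a pectin methylesterase, 0.88, 0.39 and 0.34. Both reached the P-S15 level in a mutant on S15. AT1G23200 read 49.3 and 56.8 on P-S1500 and 115 and 83.0 on P-S15. On S15 it read 102 and 108 in slim1-1 and 104 and 112 in slim1-2. AT5G19800 read 160 and 235 on P-S15 and 201 and 199 on slim1-2-S15.

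The 3 other enzymes were dim. AT1G74010, strictosidine synthase-like, read 32.7 and 51.6 on P-S1500 and 68.1 and 113 on P-S15. It read 34.4 and 55.7 on slim1-1-S1500, 46.1 and 48.2 on slim1-1-S15, 69.9 and 67.5 on slim1-2-S1500, and 69.7 and 76.1 on slim1-2-S15. The slim1-2 arrays of this gene overlapped those of P-S15. AT2G17650, an AMP-dependent synthetase and ligase, had R of 0.85 in P, and AT2G39980, an acyltransferase of the HXXXD family, 0.83. The 3 signalling genes FU, the FUSED kinase needed for pollen cytokinesis, AT5G51270, a U-box kinase, and AT3G27150, a kelch-repeat protein, had R in P of 0.97, 0.85 and 0.96. In slim1-1 their R were -0.50, -0.04 and -0.13, and in slim1-2 they were 0.37, -0.02 and 0.16. FU read 129 and 78.4 on slim1-1-S1500 and 75.9 and 96.9 on P-S15, so these arrays overlapped.

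AT4G33960, of unknown function, read 255 and 244 on P-S1500 and 624 and 651 on P-S15. Its mutant arrays lay between the parental groups, with 344 and 390 on slim1-1-S1500, 327 and 263 on slim1-1-S15, 394 and 349 on slim1-2-S1500, and 335 and 361 on slim1-2-S15. AT1G70880, of the Bet v 1-like major latex protein family, read 49.4 and 77.2 on P-S1500 and 149 and 127 on P-S15. The mutant means were higher on S1500, with 52.9 and 108 on slim1-1-S1500 against 45.2 and 49.6 on slim1-1-S15, and 122 and 114 on slim1-2-S1500 against 88.0 and 64.7 on slim1-2-S15. R was -0.68 in slim1-1 and -0.65 in slim1-2, and the slim1-1 value rested largely on the S1500 array at 108.

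AT4G37220, of the cold acclimation WCOR413 family, read 36.7 and 32 on P-S1500 and 64.2 and 102 on P-S15. It read 44.4 and 46.6 on slim1-1-S1500, 48.9 and 49.4 on slim1-1-S15, 55.2 and 73.7 on slim1-2-S1500, and 32 and 59.9 on slim1-2-S15, so the slim1-2 arrays overlapped those of P-S15. AT3G01730, of unknown function, read 44.6 and 36.2 on P-S1500 and 82.4 and 95.1 on P-S15. Its mutant arrays read 72.8 and 43.8 on slim1-1-S1500, 49.7 and 50.7 on slim1-1-S15, 76.0 and 76.3 on slim1-2-S1500, and 73.2 and 61.5 on slim1-2-S15, all below P-S15. AT2G15830, also of unknown function, read 115 and 97.3 on P-S1500 and 185 and 259 on P-S15. It read 125 and 149 on slim1-1-S1500, 140 and 134 on slim1-1-S15, 151 and 162 on slim1-2-S1500, and 190 and 141 on slim1-2-S15, and only the last group overlapped P-S15.

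The remaining named members, AT5G43230, AT5G22540, AT4G03820 and AT2G25510, had R in P of 0.86, 0.83, 0.82 and 0.82. AT2G25510 differed from the others in its mutant values. It read 116 and 115 on P-S1500 and 179 and 232 on P-S15, while slim1-1 gave 68.6 and 61.7 on S1500 and 46.7 and 52.6 on S15. In slim1-2 its S1500 arrays read 179 and 109 and its S15 arrays 47.3 and 64.8, an R of -1.33.

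**Figure D2:**
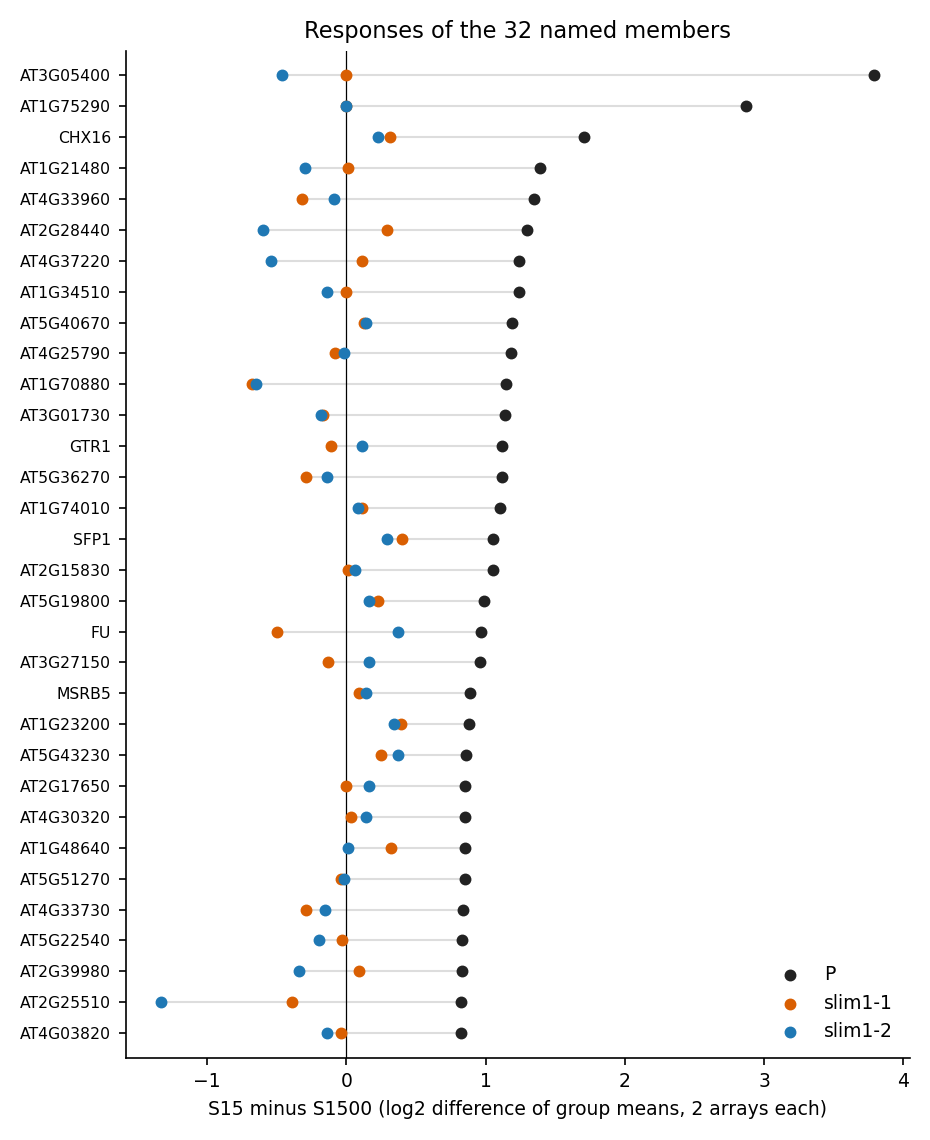
Responses of the 32 named members, as S15 minus S1500 differences of log2 group means (2 arrays each) in P (black), slim1-1 (orange) and slim1-2 (blue), ordered by R in P. R in P runs from 0.82 to 3.79; the lowest mutant value is the slim1-2 point of AT2G25510 at -1.33.

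The 34 unnamed members included the largest responses. On P-S15 their signals ran from 59.8 to 2504 on replicate 1 and from 70.4 to 2412 on replicate 2, with medians of 562.5 and 631. Medians on P-S1500 were 153.5 and 172.5, those on the slim1-1 arrays 170.5 to 185.5, and those on the slim1-2 arrays 178 to 227.5. The highest R, 5.33, belonged to a probe set that read 1265 and 1336 on P-S15 and at most 32.7 on every other array. In all, 4 members, of which AT1G75290 is the named one, were at the floor on all 8 mutant arrays. For these 4, a mutant response under the floor could not be seen.

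**Figure D3:**
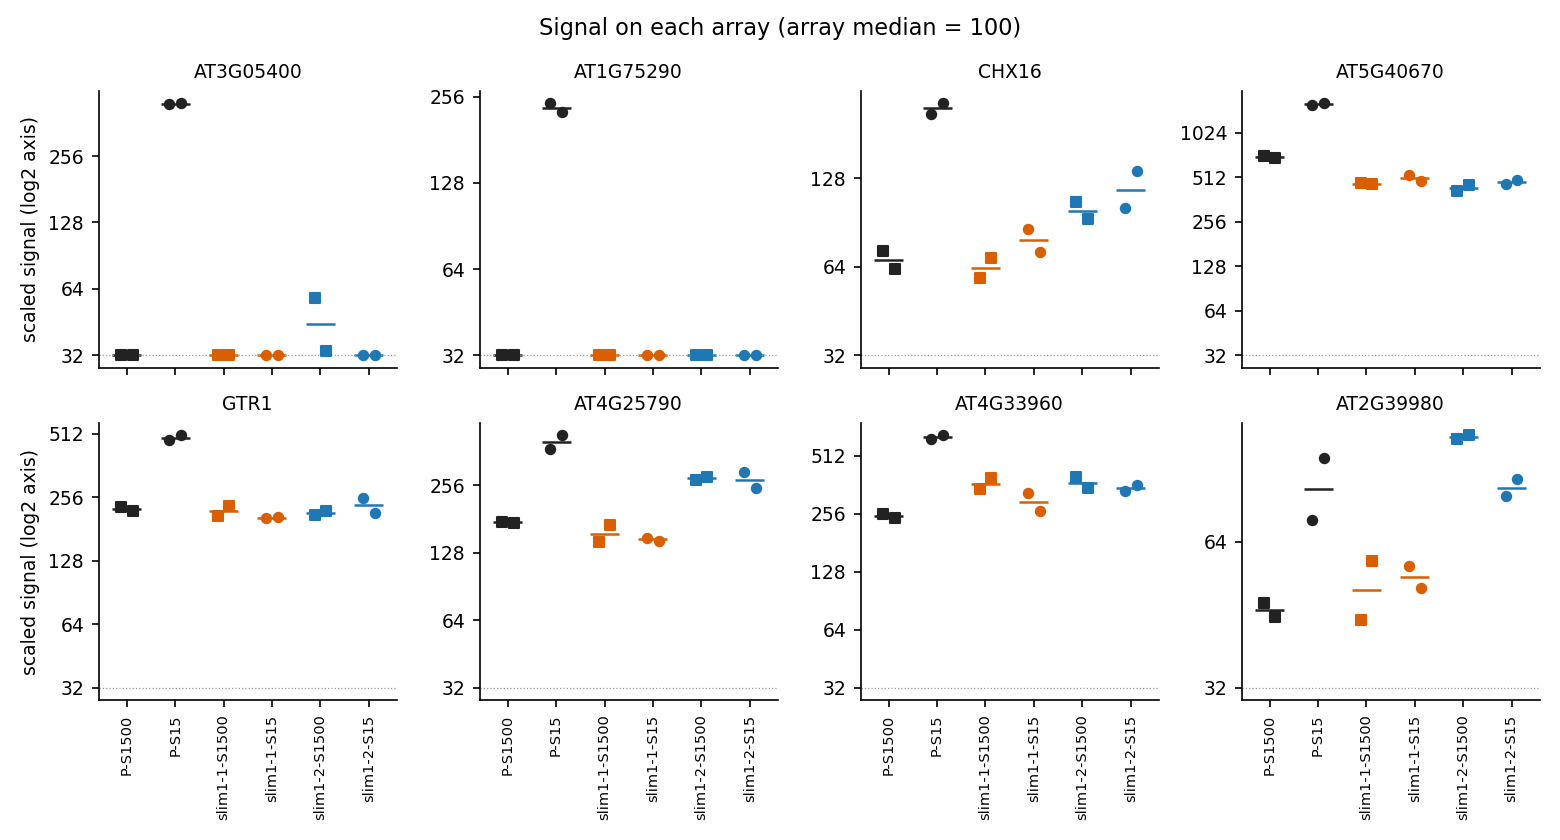
Scaled signal on each of the 12 arrays for 8 named members, on log2 axes that differ between panels; squares are S1500, circles S15, bars group means and the dotted line the floor of 32. P-S15 is the highest group in 7 of the 8 panels, and for AT2G39980 the slim1-2-S1500 arrays, at 104 and 106, lie higher.

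The thresholds cut through a continuous range. Just inside the parental threshold were AT2G25510 and AT4G03820 with R of 0.82 and AT5G22540 with 0.83, and just outside were AT5G04960 with 0.79, EULS3 with 0.78 and AT3G23550 with 0.77. On the mutant side, SFP1, AT1G23200 and FU were just inside, with their higher mutant R at 0.40, 0.39 and 0.37. Just outside, AT2G30540 had R of 2.31 in P and 0.41 in slim1-2, FMO had 1.42 in P and 0.41 in slim1-1, and AT5G04120 had 1.12 in P and 0.45 in slim1-2.

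For tests across the array, limma was fitted to 13647 probe sets whose log2 signal averaged over the arrays exceeded the 40th percentile. Of the 66 members, 53 passed this filter, 24 of them named; 13 did not, and 4 of the 53 would not have passed on the 5 groups other than P-S15. The named members that did not pass were AT3G05400, AT1G75290, AT2G28440, AT1G34510, AT4G37220, AT1G74010, AT5G51270 and AT5G22540. Since the rule used the media contrasts, the following calls at an adjusted p of 0.05 restate it. In P, 47 of the 53 were called higher on S15, beside 1.64% of all tested probe sets. Not called in P were FU, AT5G43230, AT2G17650, AT4G03820, AT2G25510 and 1 unnamed member, with limma adjusted p from 0.0539 to 0.378. In slim1-1, 0 were called in either direction, beside 0.491% called higher and 1.54% lower. SFP1 came nearest, higher on S15 by 0.40 with a 95% interval of 0.19 to 0.60 (limma adjusted p = 0.0522). In slim1-2, 0 were called higher (0.806% of all tested) and 1, AT2G25510, lower (1.71%). At an unadjusted limma p under 0.05, 3 members were higher (3.37% of all tested) and 4 lower (7.76%) in slim1-1, and 2 higher (6.46%) and 4 lower (6.7%) in slim1-2. The mean slim1 response was called lower than the parental response for 34 members (0.667% of all tested), and for 20 when P-S15 replicate 2 was left out.

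The comparison of the slim1 lines with P on S1500 shares its arrays with the rule and is a description. The mean of both slim1 lines was called different from P for 4 members, 3 higher (0.293% of all tested) and 1 lower (0.703%). AT5G40670 was lower by a log2 difference of -0.65 ± 0.0813 (SE), and AT4G33960 was higher by 0.56 ± 0.104. The other 2 are unnamed, with values of 0.42 and 0.46. The number of calls fell to 0 without P-S1500 replicate 1 and to 1 without P-S1500 replicate 2. AT4G33960 also lost its call without slim1-1-S1500 replicate 2.

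The S1500 levels of the members in each slim1 line are likewise given beside P as a description. The rule favours rows with low P-S1500 signals, which pushes a mutant minus P value upward. The shares over all tested probe sets, which were not so chosen, are therefore not a fair measure. The median difference from P was 0.56 on the log2 scale for slim1-2 and 0.09 for slim1-1, against -0.01 and 0.02 over all tested probe sets. Both slim1-2-S1500 arrays lay above both P-S1500 arrays for 40 of the 53 members (21.2% of all tested), and both slim1-1-S1500 arrays did so for 18 (24.8%). Below P-S1500 lay 4 members in slim1-2 (23.9%) and 11 in slim1-1 (19.4%). All 4 mutant arrays together lay above both P-S1500 arrays for 16 members (10.5% of all tested) and below them for 2 (9.65%).

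Whether slim1-2 and slim1-1 differed in the level of these genes is the one comparison that the rule did not use directly. The mean over both media does not depend on the difference between them, except near the floor, which pulls R of dim rows toward 0. Averaged over S1500 and S15, 19 of the 53 tested members were higher in slim1-2 than in slim1-1, beside 1.15% of all tested probe sets, and 1 was higher in slim1-1, beside 0.586% (limma, adjusted p under 0.05, n = 2 arrays per group). The median of slim1-2 minus slim1-1 was 0.33 over the members and -0.01 over all tested probe sets. Of the 53 values, 43 were above 0. The 53 include the 4 members that passed the filter only with P-S15, where the rule made them high. The counts and medians were not taken without these 4. All 4 slim1-2 arrays lay above all 4 slim1-1 arrays for 24 members (2.32% of all tested), and the reverse held for 2 (1.83%). The rule used the group means of each medium, so values within 1 medium are a description. The median of slim1-2 minus slim1-1 was 0.35 on S1500 and 0.26 on S15, against -0.03 and 0.02 over all tested probe sets. On S1500 alone both slim1-2 arrays were above both slim1-1 arrays for 34 members (15.5%), and on S15 alone likewise for 34 (18.7%).

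Of the 19, 5 are named and were higher in slim1-2, each with all 4 slim1-2 arrays above all 4 slim1-1 arrays. AT5G19800, the hydroxyproline-rich glycoprotein gene, read 111, 78.6, 132 and 91.1 on the slim1-1 arrays and 188, 169, 201 and 199 on those of slim1-2, with S1500 before S15. The log2 difference was 0.90 ± 0.158 (SE; 1.87-fold; limma adjusted p = 0.00615). AT4G25790, the CAP protein gene whose arrays are given above, was 1.81-fold higher in slim1-2 (0.86 ± 0.0922, limma adjusted p = 7.96e-05). AT2G39980, the acyltransferase gene, read 44.2, 58.4, 57.0 and 51.3 in slim1-1 and 104, 106, 79.4 and 86.1 in slim1-2. P lay at 47.9 and 44.7 on S1500 and at 71.0 and 95.3 on S15, so slim1-2-S1500 exceeded every parental array. Its difference was 0.83 ± 0.143 (limma adjusted p = 0.00551).

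CHX16 was 1.52-fold higher in slim1-2 (0.61 ± 0.131, limma adjusted p = 0.026). This call was lost when any 1 of 4 arrays was left out: replicate 1 of slim1-1-S1500, replicate 2 of slim1-1-S15, replicate 1 of slim1-2-S1500 or replicate 2 of slim1-2-S15, with slim1-1 minus slim1-2 then at -0.50 to -0.56. AT4G33730, a second CAP protein gene, read 135, 133, 113 and 107 in slim1-1 and 172, 181, 166 and 153 in slim1-2. Its difference was 0.46 ± 0.0899 (limma adjusted p = 0.0129), and slim1-1 minus slim1-2 was -0.43 with an adjusted p of 0.0571 in limma without slim1-2-S15 replicate 1. The 14 unnamed members that were higher in slim1-2 differed by 0.41 to 0.99, and the unnamed member higher in slim1-1 by 0.41 (limma adjusted p = 0.0495).

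The other 33 tested members were not called. For AT2G25510 the difference was 0.63 with a 95% interval of 0.28 to 0.98, and for AT1G70880 it was 0.66 ± 0.205 (SE), estimates as large as some of the called differences. The bright transport genes allowed less, with GTR1 at 0.08 (-0.09 to 0.26) and AT5G40670 at -0.09 (-0.23 to 0.05). AT1G21480 had the lowest value among named members, -0.51 (-0.94 to -0.07; limma adjusted p = 0.362).

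**Figure D4:**
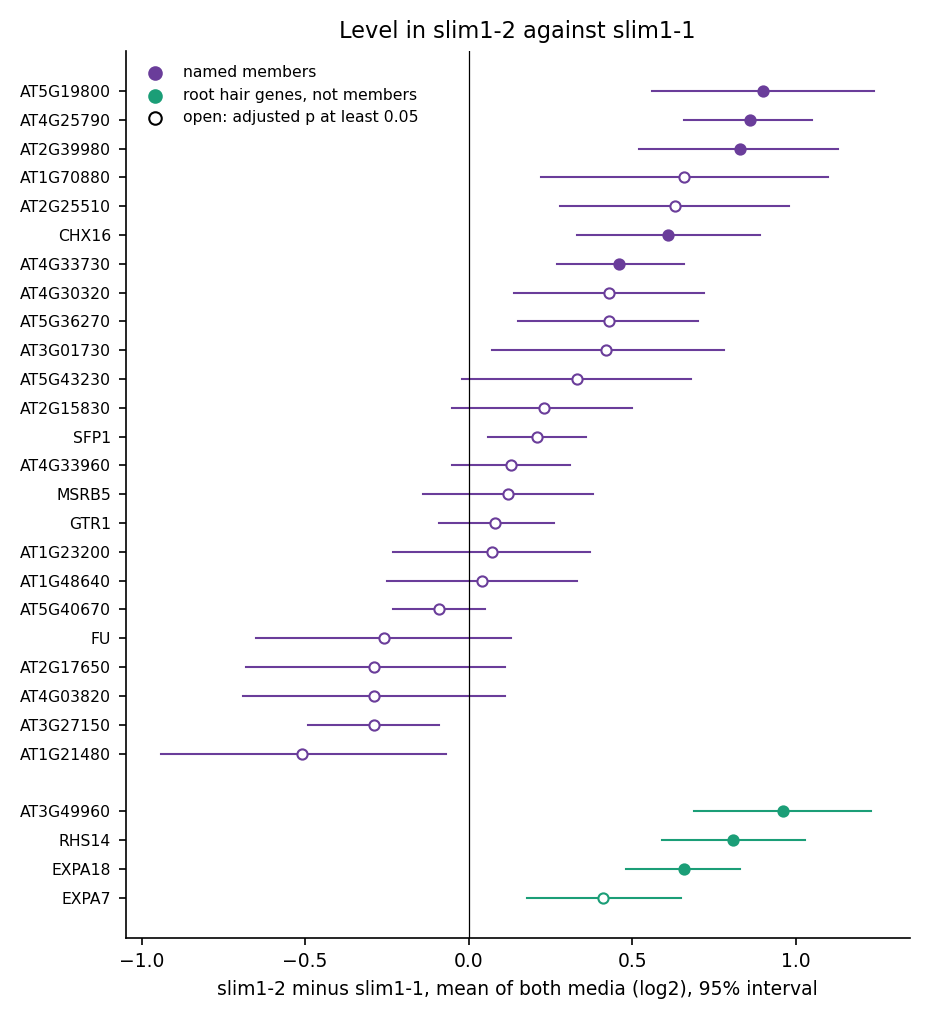
Level of each tested named member in slim1-2 minus slim1-1, as the mean of both media on the log2 scale with its 95% interval (4 arrays per line); filled points passed an adjusted p of 0.05 in limma, and 4 root hair genes that are not members are at the bottom. AT5G19800, AT4G25790, AT2G39980, CHX16 and AT4G33730 are the filled members, at 0.46 to 0.90.

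Among genes that mark root hairs, EXPA7, EXPA18 and AT3G49960 are left out by name in the rule. Of 30 listed root hair genes, 5 had a probe set named here, 4 were tested and 0 are named members; 3 of the 4 were called higher in slim1-2 than in slim1-1. RHS5 was at the floor on every array. The summed scaled signal of the 5 was 1623 to 1691 on P-S15 and 757 to 954 on P-S1500. In slim1-1 it was 755 to 857 on S15 and 762 to 837 on S1500, and in slim1-2 it was 1248 to 1269 on S15 and 1201 to 1372 on S1500. The expansin gene EXPA18, RHS14 and the peroxidase gene AT3G49960 were higher in slim1-2 than in slim1-1 by 0.66, 0.81 and 0.96 (limma adjusted p = 0.00026, 0.000366 and 0.00053). The expansin gene EXPA7, at 0.41, was not called (limma adjusted p = 0.0867). In bulk roots, fewer cells of a type and less RNA per cell cannot be told apart, and the part of root hairs in the members' values was not tested.

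Of 11 listed shoot markers, 3 were tested and 1 was called between the slim1 lines. RCA, rubisco activase, was higher in slim1-2 than in slim1-1 by 0.41 (limma adjusted p = 0.00798), and the light-harvesting genes LHCB4.1 and LHCB4.2, at 0.45 and 0.35, were not called (limma adjusted p = 0.0606 and 0.175). Their summed signal was 874 to 959 on slim1-1-S1500, 1461 to 1484 on slim1-2-S1500, 742 to 874 on slim1-1-S15 and 863 to 940 on slim1-2-S15. In P it was 1463 to 1659 on S1500 and 1235 to 1253 on S15. The part of shoot RNA in the members' values was not tested. PYK10 and PER57 differed between the slim1 lines by 0.03 and 0.27 and were not called (limma adjusted p = 0.976 and 0.284).

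**Figure D5:**
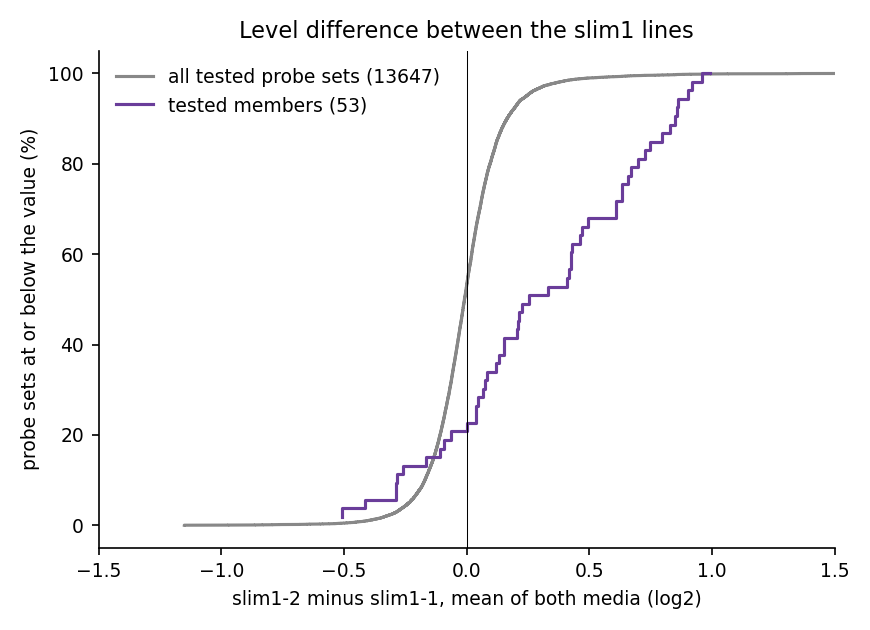
Cumulative share of probe sets at or below a given slim1-2 minus slim1-1 difference (log2, mean of both media), for all 13647 tested probe sets (grey) and the 53 tested members (purple). The member curve lies to the right of the grey curve over most of its range, with a median of 0.33 against -0.01.

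Of the 32 named members, 0 are in the lists of known sulfur genes, and the 34 unnamed ones could not be compared with the lists. Few listed genes could have appeared. Named probe sets covered 0 of 12 sulfate transporters, 3 of 22 assimilation genes, 2 of 10 sulfur deficiency markers and 4 of 22 aliphatic glucosinolate genes. The 0 thus does not show that the members hold no known sulfur genes. Of 22 listed genes of sulfate assimilation and of cysteine and glutathione synthesis, 3 were tested, and in P 1 was called higher and 2 lower. The 2 lower genes, ATPS4 and SIR, were called lower in both slim1 lines too. In P, slim1-1 and slim1-2, ATPS4 had R of -2.50, -0.77 and -0.81, and SIR -0.48, -0.58 and -0.65. ATPS3, an ATP sulfurylase gene, came nearest to the rule, with R of 0.76 in P, -0.06 in slim1-1 and 0.07 in slim1-2. It read 173 and 143 on P-S1500, 276 and 260 on P-S15, and 117 to 167 on the mutant arrays. SDI2, a sulfur deficiency marker, was higher on S15 in every line, with R of 1.99, 2.34 and 2.28, unlike the members. BGLU28, a beta-glucosidase gene of the same list, was at the floor on all 6 S1500 arrays, so its R was at least 6.48 in P and at least 2.68 and 3.06 in slim1-1 and slim1-2, past the mutant limit of the rule. In aliphatic glucosinolate synthesis, all 4 tested of 22 listed genes were called lower in P, including BCAT4, which starts methionine chain elongation, with R of -5.18. Much of this was kept in the mutants. All 4 were called lower in slim1-1 and 3 in slim1-2, and BCAT4 had R of -3.81 and -3.17 there. Among the EIN3 family and its ethylene targets, EIN3 was the 1 tested of 9 listed genes and was not called (R of 0.00 in P).

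Genes next to the members on the chromosomes were taken from the RefSeq order of assembly TAIR10.1. Of 35 genes adjacent to a named member that had a probe set of their own, 1 had R of at least 0.8 in P. It was AT1G75280, next to AT1G75290, with R of 2.58 in P and 0.17 and 0.21 in slim1-1 and slim1-2. AT1G75280 met the thresholds and is not a member only because the rule leaves it out by name. Over all 22746 probe sets, 123 had R of at least 0.8 in P with both P-S15 arrays above both P-S1500 arrays. MSRB6, next to MSRB5 and like it a methionine sulfoxide reductase gene, had R of -1.25 in P, -1.1 in slim1-1 and -1.15 in slim1-2. SFP2, next to SFP1, had R of 0.41, 0.26 and 0.37. Probe sets of close paralogues can share transcripts, and the values of these pairs are uncertain to that extent.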

How the data were processed

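The authors deposited linear intensity signals, 1 for each probe set of an array. MAS5 made them, per the submitters' processing notes; its version and scaling target and the genome build are not given in these sources. The number of arrays limits the precision. Groups came from the sample titles. After 64 AFFX control rows were set aside, each array was scaled to median 100, floored at 32 and log2-transformed. limma 3.58.1 in R 4.3.3 fitted 1 mean per group to 12 arrays, with an eBayes intensity trend, for probe sets above the 40th percentile. Tests were two-sided, with Benjamini-Hochberg adjustment over all 13647 tested probe sets and calls at 0.05. On simulated data, 53.8% of changes of 0.5 and 98.8% of changes of 1 (log2) between slim1-1 and slim1-2 were recovered.

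The members, gene lists and naming rule were chosen with earlier results of these data known. All members with 1 gene are named. Values of every array are given for the 16 named members with the highest R in P and for others on which a result turns, and nearest rows for each threshold. Names and gene order came from RefSeq (TAIR10.1), which 31 of 32 named members matched. Alternatives were quantile normalization, signals as deposited, floors of 16 and 64, no filter, a 60th percentile filter, no trend, a replicate block, and 1 array left out at a time. Array order and each medium apart were added after seeing the data.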

Additional observations from a re-analysis of the deposited data

Results flagged for a closer look

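For 5 named members, the level averaged over both media differed between the mutant lines. As slim1-1 minus slim1-2 on the log2 scale, the limma differences were -0.90 for AT5G19800, -0.86 for AT4G25790, -0.83 for AT2G39980, -0.61 for CHX16 and -0.46 for AT4G33730. Adjusted p-values were 0.00615, 7.96e-05, 0.00551, 0.026 and 0.0129, and in each case all 4 slim1-2 arrays lay above all 4 slim1-1 arrays. Each slim1 line is 1 isolate with 2 arrays per medium, so a difference between alleles cannot be told apart from a difference between these isolates or their cultures. The root hair genes EXPA18, RHS14 and AT3G49960 and the shoot marker RCA, which are no members, differed in the same direction, by 0.66, 0.81, 0.96 and 0.41. BCAT4, of the listed glucosinolate genes and no member, differed the other way. Its slim1-2 minus slim1-1 difference was -0.63 (limma adjusted p = 0.000247).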

How the results depend on the processing

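Membership depended on the scale. The rule kept 386 probe sets after quantile normalization, which had a floor of 1 (59 of the 66 among them), 147 with a floor of 16 (64 shared) and 34 on signals as deposited (19 shared); a floor of 64 gave 50. Leaving out 1 array gave 59 to 120. Across all these settings, 5 members were always kept. AT3G05400 and AT1G75290 were lost after quantile normalization and with a floor of 16. The unnamed members with R of 5.33 and 3.94 in P were lost after quantile normalization. Without scaling, the median change over everything tested moved to 0.26 in P, 0.61 in slim1-2 and 0.22 for slim1 against P on S1500, and calls among members fell from 47 to 13 in P, from 1 to 0 in slim1-2, from 34 to 4 for the difference of response, from 4 to 0 on S1500 and from 20 to 0 for slim1-1 against slim1-2. The 5 named calls between the slim1 lines then kept their direction, at -0.54 to -0.98.

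With the 60th percentile filter, which tested 27 members, the calls were 27 in P, 1 in slim1-1, 0 in slim1-2 and 12 for slim1-1 against slim1-2; without a filter the last was also 12, and CHX16 and AT5G19800 were not called. The slim1-1 response had 1 call after quantile normalization and 1 with a floor of 64. On S1500 there were 2 calls without a filter and 1 without the trend. Leaving out 1 array gave 32 to 50 calls in P, 0 to 1 in slim1-1, 0 to 1 in slim1-2, 20 to 34 for the difference of response, 0 to 5 on S1500 and 15 to 18 for slim1-1 against slim1-2. Causes were not tested, except that fewer members were tested with the 60th percentile filter. The parental response of the 24 tested named members, the 2 named calls on S1500 and the 5 between the slim1 lines kept their sign in these settings where fitted. Over all tested probe sets, 3 medians near 0 changed sign on signals as deposited, that of slim1-1 minus slim1-2 from 0.01 to -0.07, of the slim1-1 response from -0.05 to 0.02 and of the difference of response from -0.03 to 0.06.

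The replicate number as a block gave 47, 0, 1, 33, 4 and 19 calls in the same order, against 47, 0, 1, 34, 4 and 20. Same-numbered arrays shared little: deviations from group means correlated at -0.12 to 0.26 over 15 pairs of groups, and the labels give a shared number only. Promoter motifs were not run, since no promoter sequences were used here. Signals near the floor limit 13 untested members.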
